A study of Homo sapiens with 54 samples.

Results

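The 36 genes described here serve protein folding, entry, export to degradation and stress sensing in the endoplasmic reticulum (ER). They were taken as a list of symbols, and 36 of 36 were found among the 60642 symbols of the table and among the 17593 symbols that passed the expression filter (at least 1 rescaled TPM in at least 8 of 54 tumours). By role, 5 were sensors or transcription factors, 9 chaperones and co-chaperones, 4 disulfide enzymes, 3 lectins and enzymes of the glycoprotein folding cycle, 5 served entry and signal peptide removal, and 10 served degradation. Their levels were read from bulk RNA-seq of 54 tumours grown under the skin of male NOD-SCID mice, which lack adaptive immune cells, aged 5 to 6 weeks on arrival. All tumours came from LNCaP cells (clone FGC), an established human line from metastatic prostate cancer that responds to androgens, so that tumours are separate mice but not separate donors, and p-values measure the spread between mice of 1 line. PRE-CX tumours (n = 9) came from mice with mock surgery and grew to 1000 mm3. The other 45 mice were surgically castrated when tumours were near 200 mm3. POST-CX tumours (n = 8) were taken 1 week later, when serum prostate-specific antigen (PSA) was lowest. CRPC tumours (n = 10) had relapsed after castration, judged by PSA or by size. ENZS and ENZR mice were castrated and then received the antiandrogen enzalutamide at 10 mg/kg by oral gavage on 5 days a week, from the time PSA began to rise. ENZS tumours (n = 12) were taken at the second PSA low on the drug, and ENZR tumours (n = 15) at relapse on the drug.

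Secretory and membrane proteins enter the ER through the SEC61 channel, are folded there by chaperones, disulfide enzymes and lectins, and leave in coated vesicles or are drawn back to the cytosol for degradation. When unfolded proteins gather, the sensors ERN1 (IRE1), EIF2AK3 (PERK) and ATF6 start the unfolded-protein response, in which ERN1 splices XBP1 mRNA and in which XBP1 and ATF6 raise chaperone and degradation genes. The prostate epithelium is a secretory tissue, its main secreted product PSA (KLK3) is induced by androgens, and androgens are known to increase its secretory output. Gene-level values do not separate spliced from unspliced XBP1 mRNA and do not measure the activity of the sensor proteins.

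Promoters of the response carry the ER stress element, in which NF-Y binds CCAAT and ATF6 or XBP1 binds CCACG at a fixed distance. The element (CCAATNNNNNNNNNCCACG, searched on both strands) was looked for in RefSeq promoter windows of GRCh38.p14 that run from 250 bases before to 50 bases after the gene start. Windows were matched for 33 of 36 genes (not for PDIA3, DERL1 and DERL3). The element was found in 6 of 33 windows (18.2%), against 22 of 27305 promoters of all genes (0.0806%) and 15 of 10972 promoters of genes tested here (0.137%). Its CCAAT part alone was in 27 of 33 windows (81.8%, against 35.7% of all promoters) and its CCACG part alone in 22 (66.7%, against 37.9%), both parts being counted also inside the element. The shares of all promoters and of genes tested include the members' own windows. The list was drawn from the pathway in which the element is known, so these shares describe the list and test nothing. The elements are shown because the genes that hold them include the main chaperones of the ER and XBP1, each on its own strand with the fixed letters in capitals.
XBP1: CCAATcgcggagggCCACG
HSPA5: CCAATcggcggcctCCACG
HSP90B1 first: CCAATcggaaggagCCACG
HSP90B1 second: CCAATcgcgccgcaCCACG
CRELD2: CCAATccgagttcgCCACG
CALR: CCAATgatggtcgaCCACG
CANX: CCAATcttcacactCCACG
The XBP1 element lay 52 to 34 bases before the start and the HSPA5 element 66 to 48 bases before it, both on the gene's strand. HSP90B1 held one element on the gene's strand at 194 to 176 bases and one on the other strand at 89 to 71 bases. The CANX element lay on the gene's strand at 151 to 133 bases, and those of CRELD2 (80 to 62 bases) and CALR (225 to 207 bases) on the other strand.

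A second form of the element (ATTGGNCCACG), searched after the first had been found, was in 3 of 33 windows (9.09%) against 15 of 27305 promoters (0.0549%). None of the genes with the first form held it. The limits given for the shares of the first form apply here too. The 3 genes were the chaperone partners SDF2L1 and HYOU1 and the degradation gene HERPUD1, and their elements are shown with the N in lower case.
SDF2L1: ATTGGtCCACG
HYOU1 first: ATTGGaCCACG
HYOU1 second: ATTGGaCCACG
HERPUD1: ATTGGgCCACG
They lay at 188 to 178 bases before the start in SDF2L1, at 185 to 175 and 79 to 69 bases in HYOU1 and at 117 to 107 bases in HERPUD1. The whole windows of the 3 genes that stand for chaperones and for the transcription factor of the response, HSPA5 (chr9:125241294-125241593, minus strand), HSP90B1 (chr12:103930160-103930459, plus strand) and XBP1 (chr22:28800520-28800819, minus strand), follow 5′ to 3′ on the gene's strand, with the fixed letters of each first-form element in capitals. An element read on the other strand shows as CGTGG and ATTGG.
HSPA5 window: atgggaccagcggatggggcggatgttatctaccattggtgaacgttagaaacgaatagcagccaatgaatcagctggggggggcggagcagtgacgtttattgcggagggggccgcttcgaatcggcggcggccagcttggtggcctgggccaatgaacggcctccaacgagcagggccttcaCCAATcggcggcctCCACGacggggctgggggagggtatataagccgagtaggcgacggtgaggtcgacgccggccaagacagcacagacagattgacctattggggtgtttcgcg
HSP90B1 window: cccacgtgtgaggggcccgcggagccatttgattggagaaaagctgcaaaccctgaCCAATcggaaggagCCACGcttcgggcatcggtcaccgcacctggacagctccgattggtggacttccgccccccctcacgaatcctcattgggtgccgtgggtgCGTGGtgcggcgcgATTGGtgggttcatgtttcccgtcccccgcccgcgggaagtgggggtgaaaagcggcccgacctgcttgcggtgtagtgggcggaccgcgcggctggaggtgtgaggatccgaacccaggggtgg
XBP1 window: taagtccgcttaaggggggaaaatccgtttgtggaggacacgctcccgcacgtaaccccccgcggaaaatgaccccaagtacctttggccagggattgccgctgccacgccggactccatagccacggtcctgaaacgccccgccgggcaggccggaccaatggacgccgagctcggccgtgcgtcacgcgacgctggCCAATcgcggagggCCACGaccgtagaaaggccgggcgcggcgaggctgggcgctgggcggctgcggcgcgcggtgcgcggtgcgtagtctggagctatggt
A match describes letters in this window and not binding.

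Values are TPM rescaled so that the human genes of each tumour sum to 1000000, and differences are on log2(rescaled TPM + 1). Before rescaling, the human share of the TPM total was between 70.8% and 97.5% in 50 of 54 tumours and lower in POST-CX mice 91 and 48 and ENZR mice 87 and 103, down to 27.9% in POST-CX and 12.1% in ENZR. The epithelial and prostate markers KLK3, KRT8, KRT18, EPCAM, FOLH1, TMPRSS2 and HOXB13 each had a median of at least 1 TPM in each group. A list of 16 genes of stroma, endothelium and blood, cell types that only the mouse host could supply, summed to a median of 17.5 rescaled TPM in PRE-CX (10.5 to 22.3), 24.6 in POST-CX (14.5 to 41.9), 28.4 in CRPC (17.0 to 105), 53.7 in ENZS (22.8 to 300.4) and 68.8 in ENZR (14.2 to 97.3). At a group median of at least 1 TPM were 3 of the 16 markers in PRE-CX, 5 in POST-CX, 6 in CRPC and 7 in ENZS and in ENZR. Of this list, 7 genes were tested, and 5 were called higher and 1 lower in ENZS and in ENZR against PRE-CX. Its part in the results below was not tested, and the counts without ENZS mouse 80, the tumour with the highest sum, are given beside them. In bulk tumours, fewer cells of a type and less RNA per cell cannot be told apart.

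In mock-operated PRE-CX tumours some of the lumenal chaperones and disulfide enzymes were among the most abundant transcripts per length. Others were much lower, with medians of 23.97 rescaled TPM for CRELD2, 25.3 for DNAJC3, 26.8 for SDF2L1 and 27.9 for DNAJB9. HSP90B1 (GRP94), an ER member of the HSP90 family, had a median of 920 rescaled TPM, above 99.3% of the genes tested. P4HB, the archetypal protein disulfide isomerase, followed at 892, the calcium-binding lectin CALR at 747 and PDIA3, the disulfide enzyme that works with CALR and CANX, at 654. The ranges of HSP90B1 (746 to 1242) and P4HB (685 to 968) overlapped, as did those of P4HB and CALR (513 to 836). The sensors were far lower than HSP90B1, P4HB, CALR and PDIA3, with PRE-CX medians of 35.7 for EIF2AK3, 18.1 for ERN1 and 11.9 for ATF6. XBP1 stood at 125. DERL3, a relative of the retrotranslocation proteins DERL1 and DERL2, was lowest at 1.62 and above 23.1% of the genes tested.

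The median of these genes lay furthest from PRE-CX in ENZS, the tumours taken at the second PSA low on enzalutamide. Against PRE-CX, 23 of 36 were called higher in ENZS and 1 lower (adjusted p under 0.05, limma across all genes tested), against 47.5% of all genes called higher and 13.6% lower. Members were therefore called higher in 63.9% of cases. Their median log2 difference was 0.41 and that of all genes 0.29. Because the typical gene moved upward, each tumour was also centred on its median gene. After centring, 14 of 36 were higher and 8 lower, against 26.6% and 28.3% of all genes. With values as deposited, 12 were higher and 1 lower, against 30.3% and 8.18%. The calls under all 3 scalings covered 10 genes higher (ATF6, EIF2AK3, HSPA5, DNAJB9, DNAJC3, CRELD2, PDIA3, HERPUD1, DERL2 and OS9) and 1 lower (DERL3). The share of all genes called under all 3 scalings was not counted. This list is therefore not read as a result about the 36 genes as a set. ENZS and PRE-CX tumours differ in castration, drug and time, and these cannot be told apart here.

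**Figure D1:**
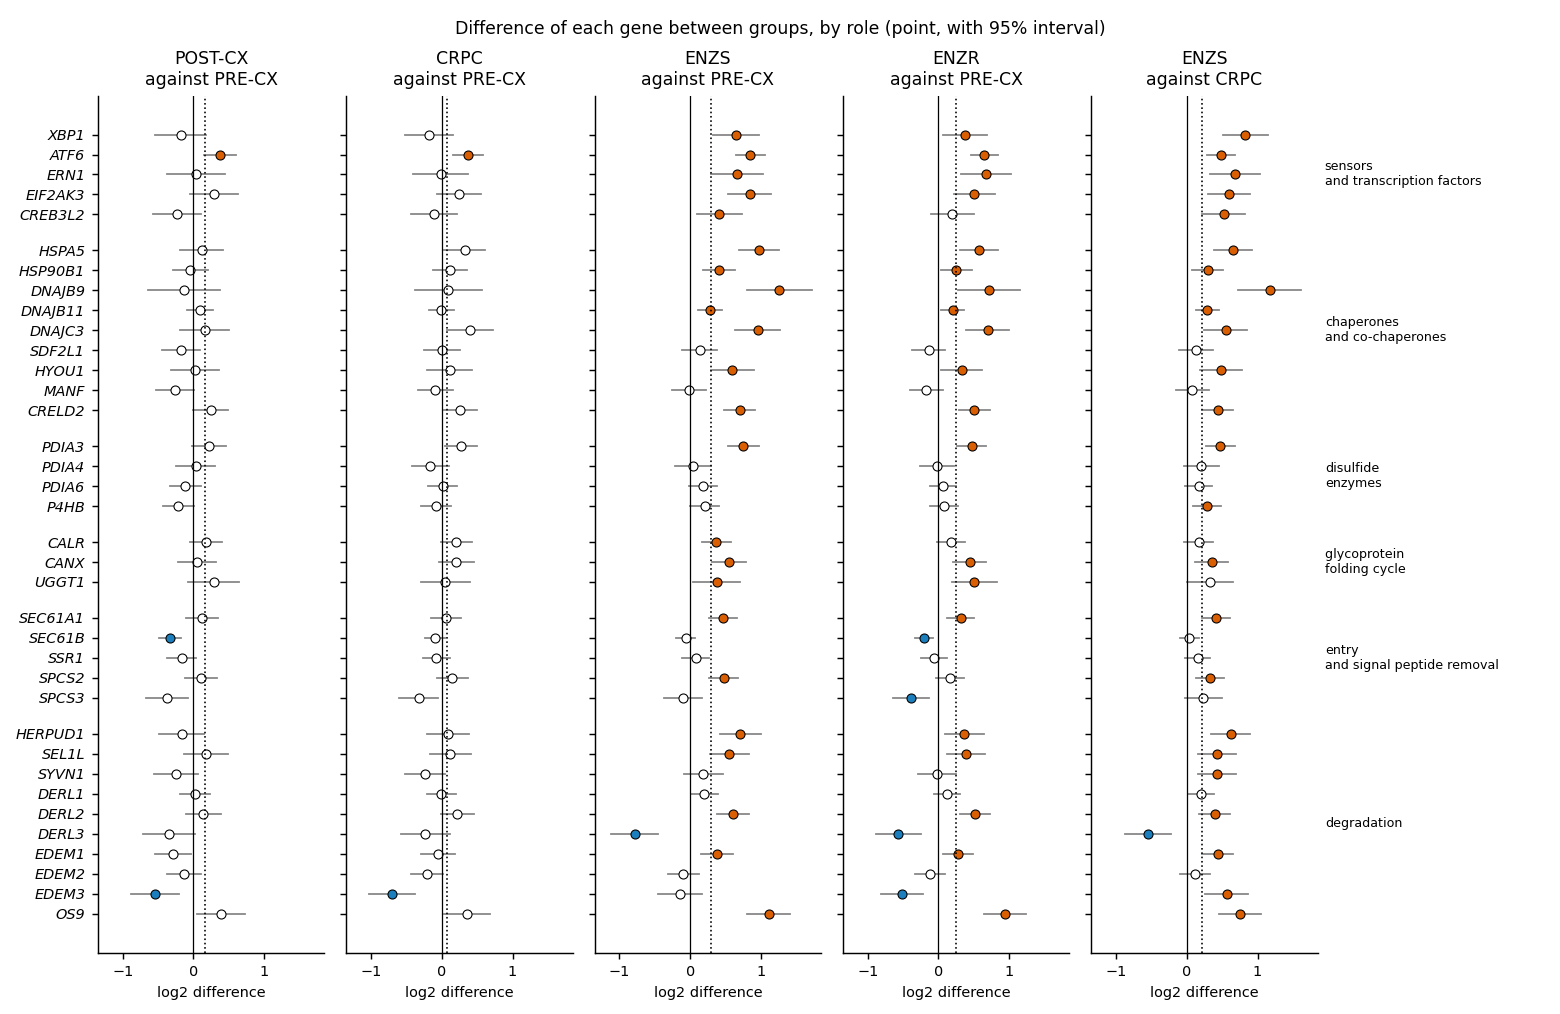
Log2 difference of each of the 36 genes (x axis, log2 of rescaled TPM + 1) in 5 comparisons, with genes in rows by role. Points are fitted differences with 95% intervals from limma, filled orange where called higher, filled blue where called lower and open where not called, and the dotted line is the median of all genes tested (0.29 for ENZS against PRE-CX). Orange points fill most rows of the ENZS comparisons, while the POST-CX and CRPC panels hold 3 and 2 filled points.

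Relapse on the drug left 20 of 36 genes higher than in PRE-CX and 4 lower in ENZR, against 44.6% and 13.8% of all genes. The members' median was 0.27 and that of all genes 0.25. After centring, 7 were higher and 10 lower, against 24.2% and 27.7%, so that the balance turned with the scaling. With values as deposited, 1 was higher (OS9) and 3 lower (SPCS3, DERL3 and EDEM3), against 17.6% and 11.5%. With rescaled values or values as deposited, few of the 36 were called after castration without the drug. After centring, 13 were lower in POST-CX. In POST-CX, 1 was higher and 2 lower against 20.6% and 5.62% of all genes, after centring 0 and 13 against 10.2% and 14.4%, and with values as deposited 0 and 1 against 1.66% and 2.67%. In CRPC, 1 was higher and 1 lower against 14.2% and 5.87%, after centring 1 and 4 against 11.6% and 11.0%, and with values as deposited 0 and 0 against 5.55% and 1.87%. The 4 comparisons share the 9 PRE-CX tumours. Without PRE-CX mouse 111, the tumour with the lowest members, the count in POST-CX was 5 (1 higher and 4 lower) and that in ENZR 20 (15 higher and 5 lower), and without ENZS mouse 80 that in ENZS was 23. These counts stand without the all-gene share of the same fit and are not read as a result about the 36 genes. With limma's array weights, 4 were higher and 6 lower in POST-CX, against 35.3% and 7.76% of all genes, and 4 and 3 in CRPC, against 24.9% and 10.3%.

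The comparison of ENZS with CRPC sets castrated tumours on the drug beside castrated tumours that had relapsed without it, and it uses no PRE-CX tumour. Here 24 of 36 genes were called higher and 1 lower, against 31.4% and 6.41% of all genes, with a members' median of 0.40 and an all-gene median of 0.21. After centring, 12 were higher and 1 lower, against 11.2% and 13.9%. With values as deposited, 3 were higher (XBP1, ERN1 and DNAJB9) and 1 lower (DERL3), against 6.21% and 2.71%. The 12 genes higher under both rescaling and centring were XBP1, ATF6, ERN1, EIF2AK3, HSPA5, DNAJB9, DNAJC3, PDIA3, SEC61A1, HERPUD1, EDEM3 and OS9. The share of all genes higher under both was not counted. Drug, time since castration and state at harvest (a PSA low on the drug against relapse by PSA or size) differ together between these groups and cannot be told apart. By role, the median log2 differences against PRE-CX and CRPC were 0.66 and 0.59 for the sensors, 0.59 and 0.44 for the chaperones, 0.20 and 0.25 for the disulfide enzymes, 0.38 and 0.33 for the glycoprotein cycle, 0.08 and 0.23 for entry and 0.29 and 0.43 for degradation.

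**Figure D2:**
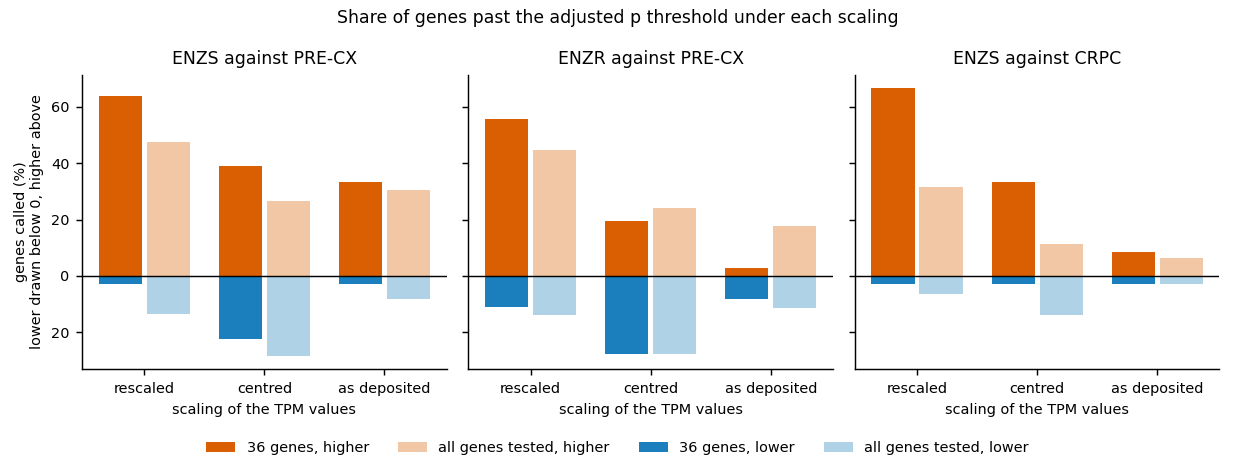
Share of genes called (y axis, percent, higher drawn above 0 and lower below it) among the 36 genes (solid bars) and among all genes tested (pale bars), for 3 scalings of the TPM values (x axis) and 3 comparisons. The solid orange bar stands above the pale one under each scaling in ENZS against CRPC (66.7% against 31.4%, 33.3% against 11.2% and 8.33% against 6.21%) and below it in ENZR against PRE-CX after centring (19.4% against 24.2%).

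Tumour by tumour, the median of the 36 log2 differences from the PRE-CX mean was between 0.22 and 0.79 in ENZS, with 12 of 12 tumours above the highest PRE-CX tumour (0.18). In ENZR it ran from -0.11 to 0.47, with 11 of 15 tumours above that value. POST-CX tumours (-0.37 to 0.29) and CRPC tumours (-0.20 to 0.25) overlapped PRE-CX, with 1 of 8 and 2 of 10 above it. The same median over all genes tested ran from -0.20 to 0.20 in PRE-CX and from 0.11 to 0.46 in ENZS. The medians of these values over the 12 ENZS tumours were 0.36 for the 36 genes and 0.26 for all genes.

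**Figure D3:**
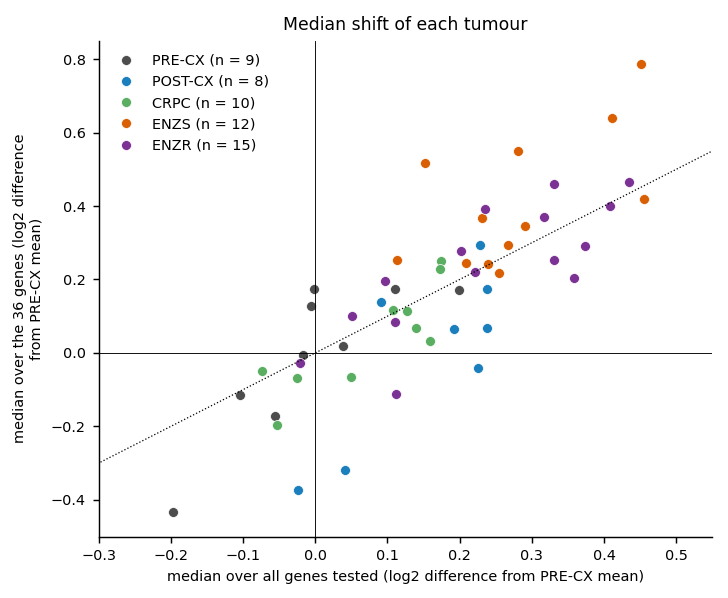
Median log2 difference from the PRE-CX mean over the 36 genes (y axis) against the same median over all genes tested (x axis), 1 point for each of 54 tumours, coloured by group, with a dotted line of equal values. ENZS points lie at 0.22 to 0.79 on the y axis, above every PRE-CX point, and PRE-CX mouse 111 lies lowest at -0.43.

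Sensors and transcription factors were called higher in 5 of 5 cases in ENZS against PRE-CX and in 5 of 5 against CRPC (47.5% and 31.4% of all genes). Of these, 2 and 4 were also called after centring and 4 and 2 with values as deposited. The shares of all genes called higher were then 26.6% and 11.2%, and 30.3% and 6.21%. ATF6, the sensor that is cut in the Golgi to free a transcription factor, ranged over 8.76 to 14.0 in PRE-CX (median 11.9), 11.6 to 19.0 in POST-CX (median 15.8), 11.6 to 19.6 in CRPC (median 14.8), 17.8 to 26.3 in ENZS (median 20.7) and 14.5 to 25.6 in ENZR (median 19.1) rescaled TPM. All 12 ENZS and all 15 ENZR tumours lay above the PRE-CX range, while POST-CX and CRPC overlapped it. ATF6 was called higher than in PRE-CX in POST-CX (log2 difference 0.38, SE 0.11, adjusted p = 0.0101), CRPC (log2 difference 0.37, SE 0.11, adjusted p = 0.01), ENZS (log2 difference 0.85, SE 0.10, adjusted p = 9.48e-10) and ENZR (log2 difference 0.65, SE 0.097, adjusted p = 2.3e-07). After centring the POST-CX call was lost (adjusted p = 0.0574) and the other 3 were kept. Only the ENZS call was kept with values as deposited (adjusted p = 0.00107). The adjusted p was then 0.818 in POST-CX, 0.29 in CRPC and 0.0851 in ENZR.

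EIF2AK3, the kinase that slows translation through eIF2α, ranged over 16.6 to 42.6 in PRE-CX (median 35.7), 26.1 to 46.1 in POST-CX (median 42.0), 26.0 to 46.3 in CRPC (median 38.0), 44.4 to 95.8 in ENZS (median 55.2) and 24.2 to 74.1 in ENZR (median 45.2) rescaled TPM. No ENZS tumour fell within the PRE-CX range, and 10 of 15 ENZR tumours lay above it. It rose by 0.84 on the log2 scale in ENZS (adjusted p = 5.08e-06) and by 0.51 in ENZR (adjusted p = 0.00243), the latter not after centring (adjusted p = 0.0758). ERN1, the kinase and RNase of the response, ranged over 9.78 to 23.6 in PRE-CX (median 18.1), 9.15 to 30.8 in POST-CX (median 17.4), 10.4 to 25.9 in CRPC (median 16.3), 16.1 to 45.4 in ENZS (median 27.4) and 15.9 to 68.0 in ENZR (median 26.8). The ENZS and ENZR ranges overlapped PRE-CX, with 8 of 12 and 11 of 15 tumours above it. Its log2 difference was 0.66 in ENZS and 0.67 in ENZR, both called, against 0.03 in POST-CX and -0.02 in CRPC, neither called. After centring only the ENZR call of ERN1 held among its 2 calls against PRE-CX (adjusted p = 0.0605 in ENZS and 0.029 in ENZR). Only its ENZS call held with values as deposited (adjusted p = 0.00572 in ENZS and 0.0583 in ENZR).

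XBP1, the transcription factor made from the mRNA that ERN1 splices, ranged over 110 to 219 in PRE-CX (median 125), 77.8 to 168 in POST-CX (median 108), 99.8 to 147 in CRPC (median 112), 160.4 to 291 in ENZS (median 197) and 91.2 to 352 in ENZR (median 167) rescaled TPM. No ENZS tumour lay within the CRPC range, although 1 PRE-CX tumour (mouse 112, at 219) reached into the ENZS range. Against CRPC, XBP1 was higher in ENZS (log2 difference 0.83, SE 0.16, adjusted p = 0.000112), under all 3 scalings. Against PRE-CX it was called higher in ENZS (0.65) and in ENZR (0.38) but neither after centring (adjusted p = 0.0692 and 0.55), and it was -0.18 in POST-CX and -0.18 in CRPC, not called. CREB3L2, an ER-anchored transcription factor related to ATF6, was called higher in ENZS only (0.41 against PRE-CX and 0.52 against CRPC), and neither call held after centring (adjusted p = 0.443 and 0.0535). Its ENZR difference from PRE-CX was 0.20. CREB3L2 was called lower in POST-CX after centring (adjusted p = 0.0228).

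**Figure D4:**
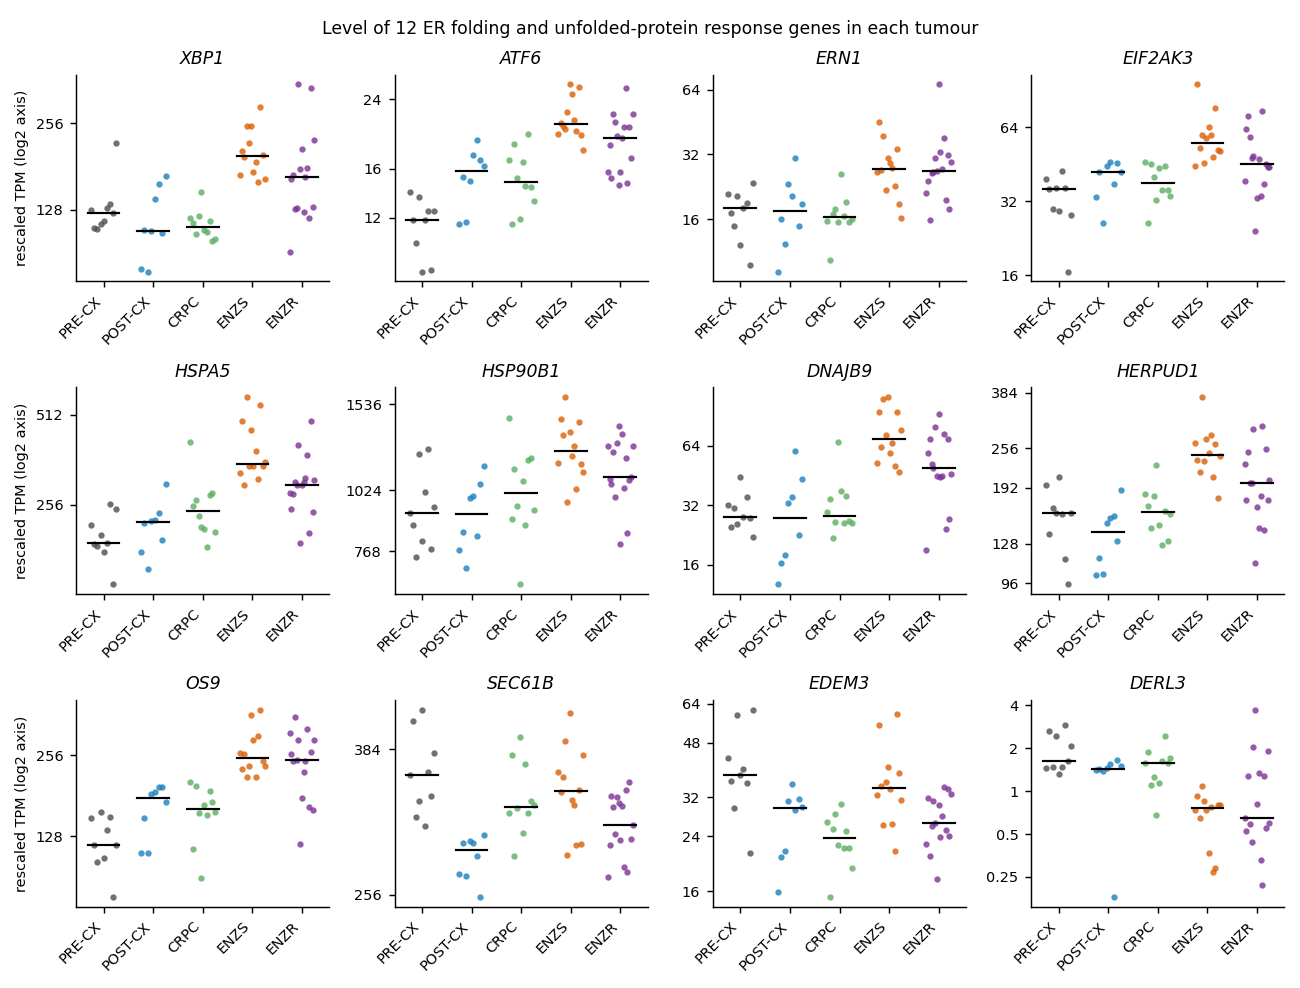
Rescaled TPM (y axis, log2 scale, each panel with its own range) of 12 genes in each of 54 tumours by group, with a bar at the group median. For ATF6, EIF2AK3, HSPA5, DNAJB9 and OS9 each ENZS point lies above each PRE-CX point, and for DERL3 each lies below.

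Among the chaperones and co-chaperones, 7 of 9 were called higher in ENZS against PRE-CX, in ENZR against PRE-CX and in ENZS against CRPC, and none in POST-CX or CRPC against PRE-CX. The shares of all genes called higher were 47.5%, 44.6% and 31.4%. After centring, 5, 3 and 3 of the 7 were also called, and with values as deposited 4, 0 and 1. The all-gene shares were then 26.6%, 24.2% and 11.2%, and 30.3%, 17.6% and 6.21%. HSPA5 (BiP), the HSP70 of the ER and the classical target of the response, ranged over 139 to 258 in PRE-CX (median 191), 156 to 299.5 in POST-CX (median 224), 184 to 414 in CRPC (median 243), 297 to 587 in ENZS (median 349.6) and 191 to 488 in ENZR (median 297) rescaled TPM. All 12 ENZS tumours lay above the highest PRE-CX tumour, as did 11 of 15 ENZR, 4 of 10 CRPC and 1 of 8 POST-CX tumours. It was higher than in PRE-CX in ENZS (log2 difference 0.97, SE 0.14, adjusted p = 4.98e-08) and ENZR (log2 difference 0.57, SE 0.13, adjusted p = 0.00026) and higher than in CRPC in ENZS (log2 difference 0.65, SE 0.13, adjusted p = 0.000281), all 3 also after centring. Only the ENZS call against PRE-CX was kept with values as deposited (adjusted p = 0.0012). The ENZR call (adjusted p = 0.291) and the call against CRPC (adjusted p = 0.106) were then lost. HSP90B1 ranged over 746 to 1242 in PRE-CX (median 920), 709 to 1150 in POST-CX (median 914), 657 to 1442 in CRPC (median 1012), 969 to 1592 in ENZS (median 1234) and 795 to 1385 in ENZR (median 1090). Its groups overlapped throughout, with 6 of 12 ENZS tumours above the PRE-CX range. The difference of 0.41 in ENZS (adjusted p = 0.00153) was called, but not after centring (adjusted p = 0.32), and that of 0.25 in ENZR became -0.01 with centring.

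DNAJB9 (ERdj4), a co-chaperone that binds misfolded substrates and ERN1, ranged over 22.0 to 44.5 in PRE-CX (median 27.9), 12.7 to 60.7 in POST-CX (median 27.7), 21.8 to 67.2 in CRPC (median 28.2), 47.3 to 114 in ENZS (median 69.6) and 19.1 to 93.0 in ENZR (median 49.3) rescaled TPM. All 12 ENZS tumours were above the PRE-CX range, and 12 of 15 ENZR tumours. It showed the largest rise of the 36 in ENZS against PRE-CX (log2 difference 1.26, SE 0.23, adjusted p = 5.7e-06) and against CRPC (log2 difference 1.17, SE 0.22, adjusted p = 0.000105), both under all 3 scalings, while POST-CX differed by -0.14 and CRPC by 0.09, not called. DNAJC3 (p58IPK), a co-chaperone that inhibits EIF2AK3, had medians of 25.3 rescaled TPM in PRE-CX (12.5 to 35.4) and 46.3 in ENZS (25.6 to 72.0), with 11 of 12 ENZS tumours above the PRE-CX range. It was higher by 0.95 in ENZS and 0.69 in ENZR, both also after centring. The ENZR call was lost with values as deposited (adjusted p = 0.0888). CRELD2, a stress-inducible protein of the ER, ranged over 14.3 to 33.2 in PRE-CX (median 23.97), 22.5 to 35.3 in POST-CX (median 28.7), 24.2 to 37.5 in CRPC (median 28.9), 33.4 to 53.2 in ENZS (median 38.6) and 27.8 to 57.7 in ENZR (median 34.6) rescaled TPM. All 12 ENZS tumours and 9 of 15 ENZR tumours lay above the PRE-CX range. It was higher in ENZS (0.70) and in ENZR (log2 difference 0.51, SE 0.11, adjusted p = 6.77e-05), both also after centring. Its ENZR call was lost with values as deposited (adjusted p = 0.331). HYOU1 (GRP170), a nucleotide exchange factor of HSPA5, was 0.59 higher in ENZS and 0.33 in ENZR, the latter not after centring. Neither was called with values as deposited. DNAJB11 (ERdj3) was called at 0.28 and 0.20, and both differences fell to -0.01 and -0.06 with centring. SDF2L1, a partner of DNAJB11, and MANF, a secreted ER stress protein, were not called higher against PRE-CX under any of the 3 scalings. Their ENZR differences were -0.14 and -0.17, and both were called lower after centring in ENZR (adjusted p = 0.0032 and 0.00394) and in POST-CX (adjusted p = 0.0326 and 0.0194). MANF was then also called lower in ENZS (adjusted p = 0.045).

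Of the 4 disulfide enzymes, 1 was called higher in ENZS against PRE-CX, where 47.5% of all genes were called higher. PDIA3 ranged over 557 to 898 in PRE-CX (median 654), 589 to 936 in POST-CX (median 832), 566 to 1038 in CRPC (median 802), 957 to 1319 in ENZS (median 1122) and 642 to 1211 in ENZR (median 929.8) rescaled TPM. All 12 ENZS tumours and 9 of 15 ENZR tumours lay above the PRE-CX range. It rose by 0.75 in ENZS (adjusted p = 5.68e-08) and by 0.47 in ENZR, both also after centring. The ENZR call of PDIA3 was lost with values as deposited (adjusted p = 0.487). PDIA4 (0.04 in ENZS), PDIA6 (0.19) and P4HB (0.21) were not called against PRE-CX with rescaled values. After centring, PDIA4 was called lower in ENZS (adjusted p = 0.0387) and ENZR (adjusted p = 0.0168). PDIA6 (adjusted p = 0.0207) and P4HB (adjusted p = 0.00228) were then called lower in POST-CX. P4HB was called higher only in ENZS against CRPC (0.29), and not after centring. In the glycoprotein folding cycle, where CALR and CANX hold monoglucosylated proteins and UGGT1 adds the glucose back to misfolded ones, 3 of 3 were called higher in ENZS: CALR at 0.37, CANX at 0.55 and UGGT1 at 0.38. Of these, CANX alone was also called after centring (adjusted p = 0.0142), where 26.6% of all genes were called higher. None of the 3 was called with values as deposited. CANX tumours ran from 215 to 374 rescaled TPM in PRE-CX (median 336) and from 344 to 557 in ENZS (median 405), with 9 of 12 above the PRE-CX range. In ENZR, CANX (0.44) and UGGT1 (0.51) were called, but neither after centring (adjusted p = 0.0804 and 0.0849) or with values as deposited, and CALR (0.18) was not. HSP90B1, HSPA5 and PDIA3 have processed pseudogenes among which reads can be divided, and their levels are uncertain to that extent.

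Genes of entry into the ER moved in both directions. SEC61A1, the pore subunit of the channel, was called higher in ENZS (0.46) and ENZR (0.31), the first also after centring. Neither call held with values as deposited. SEC61B, a small subunit of the same channel, ranged over 309.7 to 428 in PRE-CX (median 358), 254 to 302 in POST-CX (median 290.3), 285 to 397 in CRPC (median 327), 286 to 425 in ENZS (median 342) and 269 to 351 in ENZR (median 311) rescaled TPM. All 8 POST-CX tumours lay below the PRE-CX range, and the other groups overlapped it. It fell in POST-CX (log2 difference -0.33, SE 0.075, adjusted p = 0.000932) and in ENZR (log2 difference -0.20, SE 0.065, adjusted p = 0.00717), both also after centring and neither with values as deposited (adjusted p = 0.159 and 0.102). SPCS2, a subunit of signal peptidase, was called higher in ENZS (0.48), not after centring, while its partner SPCS3 fell in ENZR (-0.39), under all 3 scalings. SPCS3 tumours ran from 40.9 to 64.1 rescaled TPM in PRE-CX (median 54.7) and from 16.0 to 54.2 in ENZR (median 43.4), with 5 of 15 ENZR tumours below the PRE-CX range. SSR1, of the translocon-associated complex, was not called in these comparisons with rescaled values (0.08 in ENZS). After centring, SSR1 was called lower than in PRE-CX in POST-CX (adjusted p = 0.00429), ENZS (adjusted p = 0.028) and ENZR (adjusted p = 0.000908). SEC61B (adjusted p = 0.00069) and SPCS3 (adjusted p = 0.0121) were then also lower in ENZS. SPCS3 was also lower in POST-CX (adjusted p = 0.00417) and CRPC (adjusted p = 0.0261).

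In degradation, 5 of 10 genes were called higher and 1 lower in ENZS against PRE-CX, and 7 higher and 1 lower against CRPC, where 47.5% and 31.4% of all genes were called higher. Of the 5 and 7 higher, 4 and 3 were also called after centring and 3 and 0 with values as deposited. The all-gene shares higher were then 26.6% and 11.2%, and 30.3% and 6.21%. HERPUD1, a membrane organiser of the degradation complex and a target of the response, ranged over 95.1 to 209 in PRE-CX (median 160), 102 to 189 in POST-CX (median 139.6), 127 to 227 in CRPC (median 161), 178 to 373 in ENZS (median 245) and 111 to 302 in ENZR (median 199) rescaled TPM. Of 12 ENZS tumours, 10 lay above the PRE-CX range, and 5 of 15 ENZR tumours. It was higher by 0.71 in ENZS (adjusted p = 2.89e-05), also after centring, and by 0.36 in ENZR, not after centring (adjusted p = 0.502). OS9, a lectin that hands trimmed glycoproteins to SEL1L, ranged over 76.2 to 158 in PRE-CX (median 119), 112 to 196 in POST-CX (median 178), 90.0 to 203 in CRPC (median 162), 212 to 377 in ENZS (median 251) and 119.6 to 353 in ENZR (median 246). Each ENZS tumour was above the PRE-CX range, and 14 of 15 ENZR tumours. It was higher than in PRE-CX in ENZS (log2 difference 1.11, SE 0.15, adjusted p = 3.41e-08) and ENZR (log2 difference 0.94, SE 0.15, adjusted p = 5.53e-07) and higher than in CRPC in ENZS (log2 difference 0.75, SE 0.15, adjusted p = 0.00019), all 3 also after centring. Both calls against PRE-CX were kept with values as deposited, and the call against CRPC was lost (adjusted p = 0.0786). The differences in POST-CX (0.39) and CRPC (0.36) were not called.

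SEL1L, the scaffold of the ubiquitin ligase SYVN1 (HRD1), was called higher in ENZS (0.55) and ENZR (0.39), the first also after centring, whereas SYVN1 itself was 0.19 and -0.02, not called, and higher only against CRPC (0.42, not after centring). Neither SEL1L call held with values as deposited. After centring, SYVN1 was called lower than in PRE-CX in POST-CX (adjusted p = 0.00732), CRPC (adjusted p = 0.037) and ENZR (adjusted p = 0.0253). Of the derlins, DERL2 was called higher in ENZS (0.61) and ENZR (0.52), the latter not after centring (adjusted p = 0.0532) or with values as deposited (0.285), and DERL1 was not called. All 12 ENZS tumours lay above the PRE-CX range of DERL2 (112 to 193 against 76.2 to 109 rescaled TPM). DERL3 ranged over 1.32 to 2.90 in PRE-CX (median 1.62), 0.179 to 1.66 in POST-CX (median 1.44), 0.682 to 2.46 in CRPC (median 1.58), 0.273 to 1.08 in ENZS (median 0.763) and 0.216 to 3.74 in ENZR (median 0.654) rescaled TPM. All 12 ENZS tumours and 11 of 15 ENZR tumours lay below the PRE-CX range, at levels near the pseudocount of 1 TPM, where fold changes are understated. It fell in ENZS (log2 difference -0.79, SE 0.17, adjusted p = 6.81e-05 against PRE-CX and log2 difference -0.55, SE 0.16, adjusted p = 0.00634 against CRPC) and in ENZR (log2 difference -0.57, SE 0.16, adjusted p = 0.00213), under all 3 scalings. DERL3 was also called lower in POST-CX after centring only (adjusted p = 0.0448).

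The 3 mannosidase-related genes that mark glycoproteins for degradation gave different calls. EDEM3 ranged over 21.2 to 61.3 in PRE-CX (median 37.8), 15.9 to 35.3 in POST-CX (median 29.6), 15.3 to 30.4 in CRPC (median 23.8), 21.5 to 59.2 in ENZS (median 34.4) and 17.5 to 34.6 in ENZR (median 26.5) rescaled TPM. The groups overlapped, with the highest POST-CX, CRPC and ENZR tumours (35.3, 30.4 and 34.6) under the PRE-CX median of 37.8. It fell in POST-CX (log2 difference -0.55, SE 0.17, adjusted p = 0.014), CRPC (log2 difference -0.71, SE 0.16, adjusted p = 0.00113) and ENZR (log2 difference -0.51, SE 0.15, adjusted p = 0.00285), and was -0.14 in ENZS, not called (called lower after centring). Against CRPC it was higher in ENZS (0.56, adjusted p = 0.00311). EDEM1 was called higher in ENZS (0.38) and ENZR (0.28), neither after centring, and EDEM2 was not called (-0.10 and -0.12) except as lower after centring in each of the 4 groups against PRE-CX (adjusted p from 0.00151 to 0.0409). EDEM1 was also called lower in POST-CX after centring (adjusted p = 0.000516). Across the 36 genes, every ENZS tumour lay above the PRE-CX range for 8 of 36 genes (ATF6, EIF2AK3, HSPA5, DNAJB9, CRELD2, PDIA3, DERL2 and OS9), against 9.19% of all genes tested, and below it for 1 (DERL3), against 2.94%. Every ENZR tumour lay above it for 1 gene (ATF6), against 1.92%, and every POST-CX tumour below it for 1 (SEC61B), against 1.17%.

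The 6 genes with an ER stress element in the promoter window were called higher in ENZS against PRE-CX in 6 of 6 cases (median log2 difference 0.60), and the 27 other matched genes in 16 of 27 (median 0.38), against 47.5% of all genes. After centring 3 of 6 (HSPA5, CRELD2 and CANX) and 10 of 27 were called higher (26.6% of all genes), and with values as deposited 3 of 6 (XBP1, HSPA5 and CRELD2) and 8 of 27 (30.3%). In ENZR the counts were 5 of 6 and 14 of 27 (medians 0.41 and 0.20) against 44.6% of all genes, with 2 of 6 and 4 of 27 after centring (24.2%) and 0 of 6 and 1 of 27 with values as deposited (17.6%). In ENZS against CRPC they were 5 of 6 and 18 of 27 (medians 0.39 and 0.41) against 31.4%, with 2 of 6 and 9 of 27 after centring (11.2%) and 1 of 6 and 2 of 27 with values as deposited (6.21%). A part of the element in these differences was not tested. In POST-CX and CRPC none of the 6 was called. Of the 3 genes with the second form, HYOU1 (0.59) and HERPUD1 (0.71) were called higher in ENZS against PRE-CX, both also after centring and HERPUD1 also with values as deposited, and SDF2L1 (0.13) was not. OS9 and ATF6, which had the lowest adjusted p in ENZS, hold neither form in this window.

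Relapse was examined in 2 steps, from POST-CX to CRPC and from ENZS to ENZR. Neither step gave a call among the 36 genes. In CRPC against POST-CX, 0 were called (0.00568% of all genes were called higher and 0.0568% lower), with 1 of 36 at an unadjusted p under 0.05 (SEC61B, log2 difference 0.24, SE 0.074, adjusted p = 0.144), against 12.8% of all genes. With array weights, in which limma gives less weight to tumours of larger residuals, 3 of 36 were called higher and 0 lower, against 2.47% and 9.04% of all genes. In ENZR against ENZS, 0 were called and no gene of the whole table was (0.00% higher and 0.00% lower by limma, although 9.96% of all genes had an unadjusted p under 0.05), with 33 of 36 differences negative and 12 members at an unadjusted p under 0.05, all lower. HSPA5 (-0.40, 95% interval -0.64 to -0.16), DNAJB9 (-0.55, -0.96 to -0.15), HERPUD1 (-0.35, -0.60 to -0.09), EIF2AK3 (-0.33, -0.60 to -0.07) and SPCS2 (-0.32, -0.50 to -0.14) were among these, with adjusted p from 0.306 to 0.41. The members' median was -0.16 and that of all genes -0.04.

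The difference between both steps was tested directly, as ENZR minus ENZS less CRPC minus POST-CX. Members were called in 0 of 36 cases (0.0966% of all genes higher and 0.102% lower), 30 of 36 values were negative, and 10 members, all negative, had an unadjusted p under 0.05 against 13.5% of all genes in either direction. SEC61B had the lowest adjusted p (log2 difference -0.38, SE 0.095, adjusted p = 0.0664). HSPA5 differed by -0.61 (95% interval -0.99 to -0.23, adjusted p = 0.136), which passed the threshold after centring (-0.68, adjusted p = 0.033). With array weights, 6 of 36 were called lower (HSPA5, DNAJC3, SDF2L1, SEC61B, SPCS2 and HERPUD1) and 0 higher, against 2.75% and 6.84% of all genes. The call on a difference between the steps therefore rests on the setting.

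Other genes of the same pathway, on lists that do not overlap the 36, were examined in ENZS against PRE-CX, where 47.5% of all genes were called higher and 13.6% lower (26.6% and 28.3% after centring, 30.3% and 8.18% with values as deposited). Of the PERK branch, 4 of 8 were called higher and 0 lower (3 and 1 after centring, 4 and 0 as deposited), a share higher near that of all genes, with the largest rise for CHAC1, a glutathione-degrading target of ATF4 (log2 difference 1.46, SE 0.28, adjusted p = 1.59e-05). Against CRPC, 5 of 8 were higher (1 after centring and 1 as deposited), against 31.4% of all genes, led by DDIT3, the transcription factor CHOP (log2 difference 1.02, SE 0.31, adjusted p = 0.00885). DDIT3 ranged over 22.1 to 147 in PRE-CX (median 49.1), 18.9 to 79.5 in POST-CX (median 44.3), 32.1 to 179.5 in CRPC (median 62.9), 35.6 to 416 in ENZS (median 116) and 47.4 to 223 in ENZR (median 89.9) rescaled TPM. The groups overlapped, with 4 of 12 ENZS tumours above the highest PRE-CX tumour.

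Of the other ER-anchored transcription factors and their proteases, 4 of 6 were higher and 2 lower (2 and 2 after centring, 1 and 1 as deposited). CREB3L1 (OASIS), known from secretory cells, ranged over 0.418 to 97.9 in PRE-CX (median 11.1), 0 to 2.02 in POST-CX (median 0.0956), 0 to 4.85 in CRPC (median 0.0272), 0 to 0.646 in ENZS (median 0.0543) and 0 to 0.967 in ENZR (median 0.0751) rescaled TPM. PRE-CX tumours spread widely, and the highest tumours of the other 4 groups all lay below the PRE-CX median. It fell in POST-CX (log2 difference -3.09, SE 0.49, adjusted p = 5.9e-06) and in ENZS (log2 difference -3.27, SE 0.44, adjusted p = 1.62e-08), also under both other scalings. Its fold change is no exact value, since some tumours were listed at 0. ATF6B, the relative of ATF6, was higher in ENZS (log2 difference 0.66, SE 0.17, adjusted p = 0.000945).

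Among other folding enzymes, 11 of 20 were higher and 4 lower (6 and 7 after centring, 6 and 3 as deposited), against 47.5% and 13.6% of all genes, with ERO1B, an oxidase that renews disulfide enzymes, the highest (log2 difference 1.32, SE 0.23, adjusted p = 2.64e-06) and PDIA5 the lowest (log2 difference -0.99, SE 0.18, adjusted p = 9.09e-06) of those called. The other oxidase of this kind, ERO1A, which is known to respond to hypoxia, ranged over 27.7 to 173 in PRE-CX (median 65.2), 10.2 to 23.5 in POST-CX (median 16.5), 13.4 to 87.1 in CRPC (median 27.9), 14.0 to 259 in ENZS (median 32.9) and 21.6 to 90.3 in ENZR (median 39.5) rescaled TPM, and all 8 POST-CX tumours lay below the PRE-CX range (log2 difference -2.03, SE 0.39, adjusted p = 0.000148). For signal recognition, translocon and signal peptidase, 7 of 19 were higher and 4 lower (4 and 9 after centring, 2 and 1 as deposited), from SEC11C, a catalytic subunit of signal peptidase (log2 difference -0.68, SE 0.20, adjusted p = 0.00284), to TRAM1 (log2 difference 0.79, SE 0.14, adjusted p = 3.09e-06). For oligosaccharyltransferase and glycan trimming, 10 of 17 were higher and 1 lower (5 and 3 after centring, 3 and 0 as deposited), from MAGT1 (log2 difference 1.07, SE 0.13, adjusted p = 7.74e-10) to TMEM258 (log2 difference -0.43, SE 0.11, adjusted p = 0.00111). Of other degradation genes, 11 of 20 were higher and 1 lower (6 and 6 after centring, 5 and 0 as deposited), led by ERLIN2 (log2 difference 1.39, SE 0.16, adjusted p = 6.34e-10), with the ubiquitin-conjugating enzyme UBE2J1 lower (log2 difference -0.57, SE 0.20, adjusted p = 0.0101).

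Vesicle genes of the export route gave 9 of 17 higher and 0 lower for COPII (3 and 5 after centring, 3 and 0 as deposited), among the former SEC31A, an outer coat subunit (log2 difference 0.67, SE 0.13, adjusted p = 8.89e-06). COPI and retrieval genes gave 9 of 17 higher and 2 lower (0 and 5 after centring, 0 and 0 as deposited), among the latter COPZ1 (log2 difference -0.46, SE 0.10, adjusted p = 0.00013). The median log2 differences of both vesicle lists (0.28 and 0.26) were near that of all genes (0.29), and their shares higher near 47.5%. Against CRPC the retrieval receptor KDELR3 was higher (log2 difference 0.95, SE 0.20, adjusted p = 0.000381), also after centring. Of 9 secreted prostate proteins tested, 1 was higher and 4 lower in ENZS (1 and 5 after centring, 1 and 3 as deposited), with a median log2 difference of -1.01. The phospholipase PLA2G2A was higher (log2 difference 2.35, SE 0.65, adjusted p = 0.00173) and the acute phase protein ORM1 lower (log2 difference -4.71, SE 0.23, adjusted p = 3.09e-23). ORM1 has a close paralog, so its level is uncertain. In POST-CX, the secreted list gave 1 higher and 5 lower (0 and 6 after centring, 0 and 3 as deposited), against 20.6% and 5.62% of all genes.

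Within groups, the HSPA5 level was set against 5 genes (HSP90B1, SDF2L1, DNAJB9, HERPUD1, CREB3L2) and KLK3 over tumours, 30 relations in all, on log2(rescaled TPM + 1). Tumours of a group share the rescaling, so a shift of the whole tumour enters both axes. Of 30 relations, 9 had an adjusted Pearson p under 0.05 by permutation and 5 also an adjusted Spearman p. HERPUD1 followed HSPA5 in POST-CX (n = 8, r = 0.91, adjusted permutation p = 0.0122, rho = 0.95, adjusted p = 0.0342) and in ENZR (n = 15, r = 0.78, adjusted permutation p = 0.011, rho = 0.70, adjusted p = 0.0346). Leaving out the 2 tumours farthest from the median HSPA5 level gave r = 0.81 and 0.71. DNAJB9 followed it in ENZS (n = 12, r = 0.85, adjusted permutation p = 0.011, rho = 0.78, adjusted p = 0.0346, r = 0.80 without the 2 farthest), CREB3L2 in ENZR (n = 15, r = 0.75, adjusted permutation p = 0.011, rho = 0.72, adjusted p = 0.0346, r = 0.79) and HSP90B1 in CRPC (n = 10, r = 0.76, adjusted permutation p = 0.0477, rho = 0.81, adjusted p = 0.0441, r = 0.63). KLK3 showed no relation past the threshold in any group, with r from -0.29 (ENZR, adjusted permutation p = 0.434) to 0.13 (PRE-CX, adjusted permutation p = 0.826). A relation past the threshold in one group and not in another was not tested for a difference between groups.

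**Figure D5:**
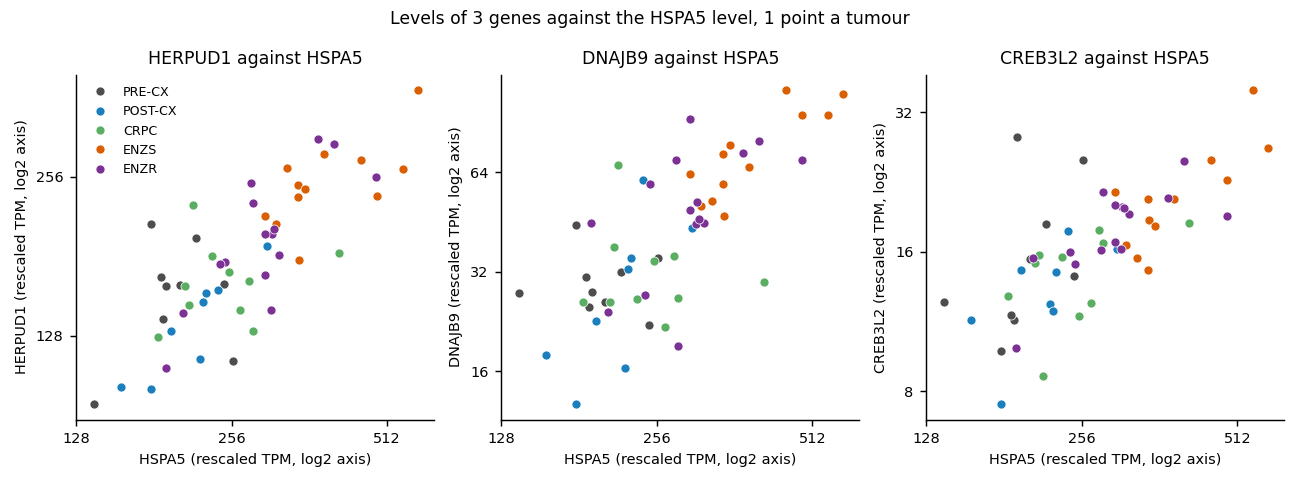
Rescaled TPM of HERPUD1, DNAJB9 and CREB3L2 (y axes) against HSPA5 (x axis), all on log2 scales, 1 point a tumour, coloured by group. HERPUD1 points of POST-CX (r = 0.91) and ENZR (r = 0.78) rise with HSPA5, and CRPC mouse 29, at an HSPA5 level of 414, lies to the right of the other CRPC tumours.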

How the data were processed

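RNA-seq of 54 LNCaP xenografts was read from a table of TPM, transcript abundance per length on a scale with a fixed library total. Per the labels and methods, the authors extracted RNA, made strand-specific polyA libraries and sequenced paired ends of 125 bases to about 40 M read pairs per sample. They trimmed reads with Trim Galore 0.6.5, aligned them with STAR 2.7.2b to a joint human GRCh38 (Gencode 33) and mouse GRCm38 (Gencode M24) reference and estimated expression with RSEM 1.3.3, with FastQC 0.11.9 for quality (versions per the submitters' processing notes). The deposited TPM are those of human genes, so a tumour's values sum to less than 1000000. TPM do not keep the read depth of a tumour, which is unknown here, and precision rests on the spread between tumours.

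Groups were taken from the labels, 1 mouse a tumour. No mouse number is shared between groups and the labels give no batch. Each tumour was rescaled to 1000000, and log2(rescaled TPM + 1) was fitted with limma 3.58.1 (R 4.3.3, trend, 5 group means, all 54 tumours) for 17593 symbols of at least 1 TPM in at least 8 tumours. Calls are Benjamini-Hochberg adjusted p under 0.05 over all symbols of a comparison. Centring subtracts each tumour's median log2 value. The pseudocount understates changes of low genes. The steps were tested on simulated data. Relations within groups used permutation tests (exact, or 100000 resamples for 10 tumours or more, two-sided, scipy 1.17.1).

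Levels are given for genes called in at least 3 of the 4 comparisons with PRE-CX and for 7 genes of the response, and full statistics for the 3 lowest adjusted p in each direction of each comparison. Levels of further genes (among them DNAJB9, OS9 and DERL3) were added after their values were seen, since results turn on them. Of the other lists, the called gene that rose most and the one that fell most in a comparison, at 5 rescaled TPM or more, could be named, and which of these are printed was chosen after their values were seen. The members and lists were chosen with earlier results of these data known. Alternatives were values as deposited, centring, a pseudocount of 0.1, no expression filter, tumours left out, array weights and a log2 difference of at least 1. Planned protein sequences were not used here. Promoter windows are from RefSeq on GRCh38.p14.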

Additional observations from a re-analysis of the deposited data

Results flagged for a closer look

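Of 108 sets of tumours (36 genes in PRE-CX, POST-CX and CRPC, the groups of at most 10 tumours), 8 held 1 tumour far from the others by Dixon's test at 95%. Chance gives about 1 in 20. XBP1 stood at 219 rescaled TPM in PRE-CX mouse 112, above the 110 to 134 of the others. XBP1 was also high in CRPC mouse 47, at 147 against 99.8 to 122. The same tumour was high for DNAJB9, at 67.2 against 21.8 to 38.0. HSPA5 was 414 in CRPC mouse 29, where the other tumours were between 184 and 281. EIF2AK3 was low in PRE-CX mouse 111, at 16.6 against 28.2 to 42.6. CALR was low in POST-CX mouse 48, at 548 against 787 to 973, and DERL3 in POST-CX mouse 91, at 0.179 against 1.39 to 1.66. SPCS2 was high in PRE-CX mouse 58, at 402 against 258 to 312. POST-CX mice 48 and 91 are also among the 4 tumours of low human TPM share. Their part in these values was not tested.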

How the results depend on the processing

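Calls among the 36 genes (3 in POST-CX, 2 in CRPC, 24 in ENZS and 24 in ENZR against PRE-CX, 0 in CRPC against POST-CX, 0 in ENZR against ENZS, 25 in ENZS against CRPC and 0 for the difference between the relapse steps) changed with the scaling, the weights and the size required. With values as deposited they were 1, 0, 13 and 4 against PRE-CX and 4 in ENZS against CRPC. After centring they were 13 in POST-CX, 5 in CRPC, 13 in ENZS against CRPC and 1 for the relapse difference. With array weights they were 10 in POST-CX (4 higher and 6 lower), 7 in CRPC (4 and 3), 3 in CRPC against POST-CX (all higher) and 6 for the relapse difference (all lower), where 35.3% and 7.76%, 24.9% and 10.3%, 2.47% and 9.04%, and 6.84% and 2.75% of all genes were called higher and lower. Requiring a log2 difference of at least 1 left 0 in POST-CX, 0 in CRPC, 2 in ENZS, 0 in ENZR and 1 in ENZS against CRPC. Leaving out POST-CX mouse 91, ENZR mouse 87, PRE-CX mouse 111 or ENZS mouse 80 in turn gave 3 to 5 in POST-CX, and the other counts stayed within 1.5 times. The last 2 of these were chosen after seeing the data. For the size rule and the tumours left out, no share of all genes is given, so those counts are not set against one. The cause of these shifts was not tested.

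Over 288 results of single genes and 10 alternatives each, 2713 of 2880 values kept direction and side of the threshold, 106 lost a call, 55 gained one and 6 changed sign with a call on either side. After centring these were DNAJB11 (-0.014), PDIA4 (-0.25) and SSR1 (-0.22) in ENZS, and HSP90B1 (-0.0069) and DNAJB11 (-0.060) in ENZR against PRE-CX. With values as deposited it was DNAJB11 in ENZR (-0.038). Of the 106 lost calls, 55 arose with values as deposited and 32 after centring. No paired analysis was possible because the groups share no mouse numbers.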
